A study of Mus musculus with 16 samples.

Results

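The response of macrophages to tumor cell medium was examined here while both the JAK kinases and the IKK kinases were inhibited. The comparison sets the samples CM + Rux + IKK-16 against DMEM + Rux, and it takes 6 of the 16 samples of the series, 3 in each group. The labels carry replicate numbers by which the samples can be matched. The main fit did not use these numbers, and its p-values are unpaired. Values from a fit with the replicate number as a block are named as such. The cells were bone marrow-derived macrophages (BMDMs) of WT Balb/c mice aged 8 weeks. CM is the medium conditioned by 4T1 cells, a mouse mammary tumor line grown in the same strain, and DMEM is the control medium without CM. The study kept 4T1 cells in RPMI and starved them of serum, and it does not state the base medium of the CM. Whether CM and DMEM differ in base medium was not tested. Ruxolitinib (Rux) is an inhibitor of JAK1 and JAK2 and was used at 0.5 μM in CM. IKK-16, an inhibitor of the IKK kinases, was used at 0.8 μM. The response without inhibitors, CM (3 samples) against DMEM (2 samples), serves as the reference and shares no sample with the comparison. The dose of ruxolitinib in DMEM is not given in the labels, and DMEM with both inhibitors was not analysed here. In this comparison CM and IKK-16 therefore differ together, and what CM changed and what IKK-16 changed on its own cannot be told apart. The labels do not say whether replicates came from separate cultures or animals, so p-values measure only the spread between these samples.

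JAK kinases sit on cytokine receptors and, once a cytokine binds, phosphorylate STAT proteins that enter the nucleus and switch on genes. The IKK complex phosphorylates the inhibitor IκB, which is then degraded and sets NF-κB free. In macrophages NF-κB drives inflammatory cytokines and chemokines, while JAK and STAT proteins carry the responses to interferons and to many of the cytokines made in that first response. Conditioned medium can also reach macrophages through growth factors, lipids, metabolites and nutrient supply.

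The 6 samples held 18449388 to 39049250 counted fragments each, and the CM and DMEM samples 18892363 to 38502700. Values below are counts scaled to a common library total (CPM, which uses the scaled totals), as mean ± SD, and differences are log2 fold changes with their standard error (SE). The defining macrophage genes were abundant in every sample, with a summed level of 45963.7 to 52199.4 CPM over 10 markers in CM + Rux + IKK-16 and of 40685.5 to 44675.3 CPM in DMEM + Rux. None of 13 epithelial markers, which 4T1 cells could bring, passed the filter on low counts, and their summed level stayed at or below 0.954 CPM in CM + Rux + IKK-16 and 0.583 CPM in DMEM + Rux. Summed neutrophil markers reached 0.954 to 1.95 CPM against 0.389 to 0.558 CPM. Among B cell markers Ighm stood out, the list summing to 11.9 to 15.6 CPM with CM + Rux + IKK-16 and 88.0 to 141 CPM in DMEM + Rux, while Pax5 was at 0 in all 6 samples. The part of these other cell types in the results was not tested. In bulk RNA, fewer cells of a type and less RNA per cell cannot be told apart.

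With both kinase families inhibited, CM-treated macrophages differed from the control cells at a large share of the genes. Of 12372 genes tested, 2204 rose and 2427 fell in CM + Rux + IKK-16 against DMEM + Rux which is 17.8% and 19.6% of the genes. A gene was called where its log2 fold change was beyond 0.5 in either direction and its adjusted p-value was below 0.05. The other 7741 genes (62.6%) did not pass. Changes of at least 4-fold were made by 457 of the genes that rose and 243 of those that fell. The samples of the groups did not overlap for 2173 of the genes that rose and 2370 of those that fell, where 64.3% of all genes tested had groups that did not overlap. Within the replicate numbers, 2200 rises and 2417 falls had the same sign in all 3 pairs. With the replicate number as a block, 2292 genes rose and 2585 fell. The scaling moved the median of all genes up by 0.21 on the log2 scale over scaling by total counts alone. On total counts alone, 30.1% of the called genes were higher in place of 47.6%, so the balance of rises and falls depends on the scaling.

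**Figure D1:**
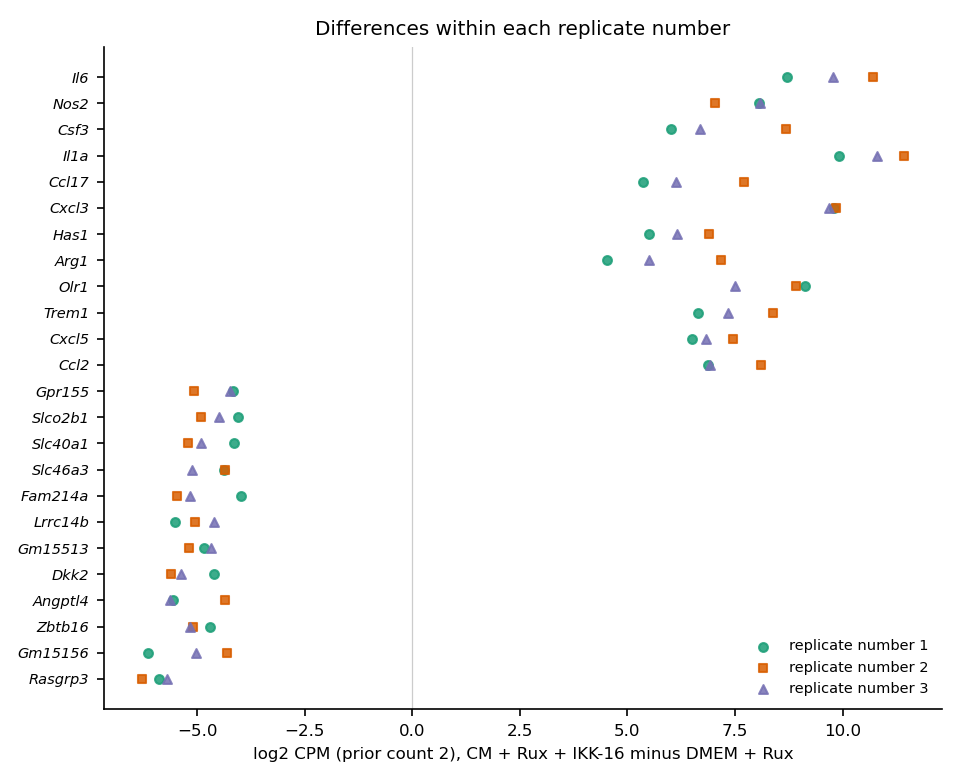
Differences between CM + Rux + IKK-16 and DMEM + Rux within each replicate number, in log2 CPM (with a prior count of 2), for the 12 largest rises and the 12 largest falls. These genes were picked among called genes whose groups did not overlap, so all points of a gene lie on the same side. Each point is 1 pair of samples with the same number, and the vertical line marks no difference; the rises lie between 4.53 and 11.4 and the falls between -6.28 and -3.98.

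The genes with the largest rises coded mostly for secreted inflammatory proteins. Promoter sequences are given for a pair of genes that still rose with both inhibitors, Il6 and Cxcl3, and for a pair whose response was much smaller than without them, Mt2 and Timp1, since NF-κB and the STATs act through DNA sites of known letters. They are from RefSeq on GRCm38.p6, plus strand, and run from 250 bases before to 50 bases after the start of the gene. Il6 lies at chr5:30012864-30013163, Cxcl3 at chr5:90785851-90786150, Mt2 at chr8:94172368-94172667 and Timp1 at chrX:20869916-20870215. Capitals mark matches to the κB motif of NF-κB, to the AP-1 motif (TGANTCA) and to the core of the metal response element (MRE, TGCACNC or TGCGCNC), on either strand.
Il6: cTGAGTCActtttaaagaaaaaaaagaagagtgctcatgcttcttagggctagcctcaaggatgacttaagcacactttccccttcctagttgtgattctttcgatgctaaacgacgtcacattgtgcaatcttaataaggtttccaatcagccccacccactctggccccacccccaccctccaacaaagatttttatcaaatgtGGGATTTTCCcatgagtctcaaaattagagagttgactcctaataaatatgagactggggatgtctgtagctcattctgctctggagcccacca
Cxcl3: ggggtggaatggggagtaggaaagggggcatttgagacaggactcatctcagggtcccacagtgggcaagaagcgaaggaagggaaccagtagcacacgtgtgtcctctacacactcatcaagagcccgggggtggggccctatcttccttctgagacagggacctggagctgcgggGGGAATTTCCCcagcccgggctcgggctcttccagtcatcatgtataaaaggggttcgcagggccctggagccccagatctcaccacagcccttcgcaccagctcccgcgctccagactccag
Mt2: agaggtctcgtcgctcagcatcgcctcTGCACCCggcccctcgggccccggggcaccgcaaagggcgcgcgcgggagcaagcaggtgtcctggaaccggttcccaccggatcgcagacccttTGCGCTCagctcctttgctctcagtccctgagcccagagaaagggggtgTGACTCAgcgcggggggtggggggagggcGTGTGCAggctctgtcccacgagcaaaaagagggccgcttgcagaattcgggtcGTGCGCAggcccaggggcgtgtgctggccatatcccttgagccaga
Timp1: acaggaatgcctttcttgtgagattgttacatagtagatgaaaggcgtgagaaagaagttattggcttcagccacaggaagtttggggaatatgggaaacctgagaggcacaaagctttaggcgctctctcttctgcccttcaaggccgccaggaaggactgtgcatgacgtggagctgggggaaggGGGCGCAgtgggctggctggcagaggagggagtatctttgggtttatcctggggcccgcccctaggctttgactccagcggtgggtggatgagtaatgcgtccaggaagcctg

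The start of Mt2 in RefSeq lies 46 bases from that of the deposited gene. Il6 held a κB match at -44 and an AP-1 match at -249 from the start. Cxcl3 held 2 κB matches that overlap, at -73 and -72. Mt2 held 4 MRE cores, at -223, -128, -50 and 5, and an AP-1 match at -79, and Timp1 held 1 MRE core at -63. No match to the STAT motif (TTCNNNGAA) lay in these 4 windows. Over the 9210 tested genes with a promoter in the RefSeq table, 5.07% held the κB motif, 4.80% AP-1, 6.76% the STAT motif and 36.4% an MRE core. Among the 1624 promoters of genes that rose the κB motif was in 6.83%, AP-1 in 6.28%, the STAT motif in 6.77% and an MRE core in 34.9%. Among the 1821 of genes that fell the shares were 4.06%, 4.28%, 6.48% and 36.7%. A match is a description of the letters and not evidence of binding.

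Il6, the cytokine interleukin-6, stood at 27.5, 109 and 57.3 CPM in the 3 samples with CM + Rux + IKK-16 and was not counted in any DMEM + Rux sample. Set against a floor of 3 counts per library, its level was at least 639-fold higher in CM + Rux + IKK-16 (edgeR adjusted p = 5.09e-06). All 3 treated samples were high, the second the highest, and CM without inhibitors reached 219 ± 111 CPM. Csf3, the granulocyte growth factor G-CSF, was likewise absent from the control counts. It stood at 4.18, 27.0 and 6.64 CPM in CM + Rux + IKK-16, at least 125-fold higher (edgeR adjusted p = 0.000848). CM alone gave 37.5 ± 23.2 CPM. Nos2, the inducible nitric oxide synthase, showed 17.4, 8.53 and 17.7 CPM against 0 counts, at least 144-fold higher (edgeR adjusted p = 3.71e-05). Its level in CM alone was far higher, at 175 ± 46.4 CPM. Ccl17, a chemokine for T cells, was at least 68.5-fold higher (edgeR adjusted p = 0.000158). It reached 6.91 ± 5.85 CPM in CM + Rux + IKK-16 and 25.0 ± 6.77 CPM in CM alone. That the groups do not overlap was a condition for picking these 4 genes and is not a result.

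Il1a, coding for the alarm cytokine interleukin-1α, rose from 0.139, 0.268 and 0.324 CPM to 198, 917 and 698 CPM, a log2 fold change of 11.18 ± 0.68 (SE, adjusted p = 1.66e-08). The first treated sample was the lowest and still far above every control. Cxcl3, a neutrophil-attracting chemokine, rose from 0.369, 0.759 and 0.486 CPM to 389, 765 and 450.3 CPM, by 9.85 ± 0.44 (adjusted p = 1.18e-09). Its response without inhibitors was 9.83 ± 0.51, and the difference of the responses was 0.02 ± 0.49 (adjusted p = 0.994). Olr1, a receptor for oxidized LDL, rose by 8.58 ± 0.33 (adjusted p = 4.44e-10) and reached 112 ± 26.1 CPM with both inhibitors and 119.8 ± 15.4 CPM in CM alone. Trem1, a receptor that amplifies inflammatory signals, rose by 7.80 ± 0.59. Cxcl5, another neutrophil chemokine, rose by 7.69 ± 0.62, and Ccl2, which attracts monocytes, by 7.51 ± 0.89. The second CM + Rux + IKK-16 sample was the highest for Trem1, Cxcl5 and Ccl2, as for Il6, Csf3 and Ccl17. Ccl2 shows the width of this spread, with 94.3, 483 and 196 CPM against 0.739, 1.70 and 1.55 CPM.

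Has1 and Arg1 were at the limit of detection in DMEM + Rux, with 1 counted fragment each over the 3 samples. Has1, a hyaluronan synthase, had 601 fragments in CM + Rux + IKK-16, a ratio of 553 (95% counting interval 98.8 to 21867). Arg1, the arginase that marks one form of macrophage activation, had 570, a ratio of 524 (93.7 to 20741), and its 3 treated samples were uneven at 1.44, 12.7 and 2.88 CPM. These intervals cover counting error only. The ratios are not on the scale of the bounds given for Il6, Csf3, Nos2 and Ccl17. Set against the same floor of 3 counts per library, Has1 was at least 57.8-fold and Arg1 at least 56.2-fold higher.

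**Figure D2:**
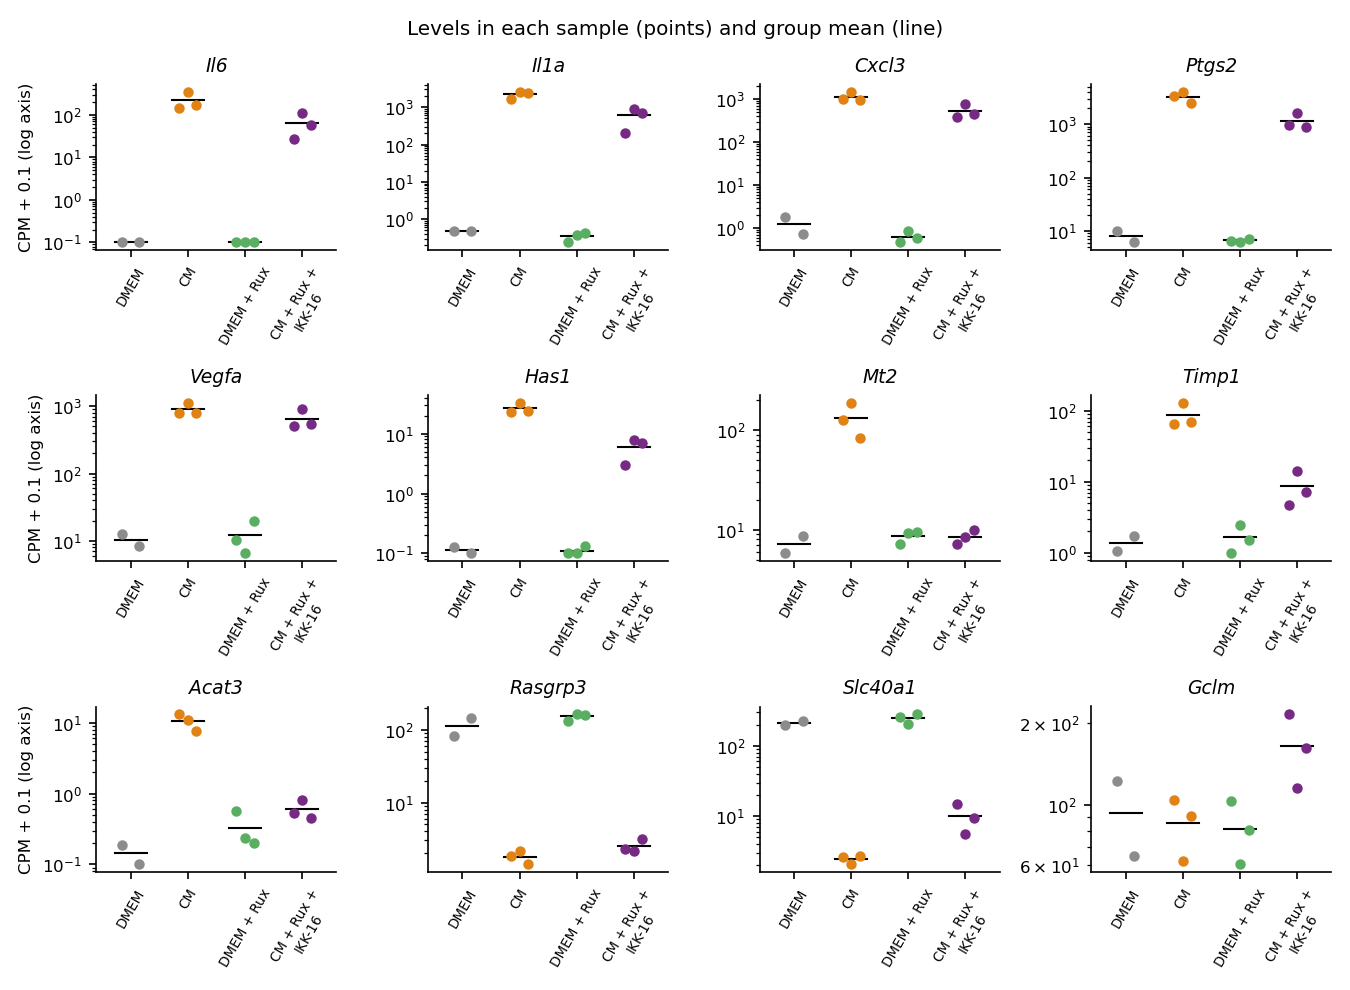
Levels of selected genes in single samples of DMEM, CM, DMEM + Rux and CM + Rux + IKK-16, as CPM + 0.1 on a log axis. Points are samples and horizontal lines are group means; the control samples of Cxcl3 lie below 2 CPM and its CM-treated samples above 380 CPM in both settings, while Mt2 reaches 82.7 to 188 CPM in CM alone and 7.01 to 9.76 CPM with both inhibitors.

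Among the largest falls, Rasgrp3, an activator of Ras proteins, fell from 135, 167 and 163 CPM to 2.22, 2.08 and 3.06 CPM, by 5.98 on the log2 scale (SE 0.23, adjusted p = 4.44e-10). All 3 treated samples lay close together and far below the controls, and without inhibitors the log2 fold change was -6.06 ± 0.24. Angptl4, an inhibitor of lipoprotein lipase, had a log2 fold change of -5.50 ± 0.36, and Zbtb16, the transcription factor PLZF, of -5.51 ± 0.66. Dkk2, a secreted regulator of Wnt signaling, fell from 13.3 ± 4.44 to 0.306 ± 0.133 CPM. Slc40a1, the iron exporter ferroportin, fell from 258, 203 and 282 CPM to 14.6, 5.41 and 9.32 CPM, a log2 fold change of -4.65 ± 0.32 (adjusted p = 4.09e-08). These 5 genes, too, were picked among those whose groups did not overlap. Slco2b1, an organic anion transporter, Slc46a3, a lysosomal transporter, Gpr155, Fam214a and Lrrc14b fell as well, with log2 fold changes between -5.17 and -4.53. The 12 largest falls also hold a pair of predicted gene models, Gm15156 with -5.85 ± 0.36 and Gm15513 with -5.30 ± 0.25. Sesn1, coding for a stress-responsive regulator of mTORC1, fell from 112, 198 and 164 CPM to 9.10, 7.83 and 10.2 CPM.

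Most of what CM changed without inhibitors was also called with both inhibitors. CM alone raised 2584 genes (20.9% of those tested) and lowered 2980 (24.1%). Called higher in both responses were 1833 genes, 83.2% of the rises with the inhibitors and 70.9% of those without, and called lower in both were 2098 genes, 86.4% and 70.4%. Across all 12372 genes the log2 fold changes of the responses had a Pearson r of 0.92, given as a description because genes are not independent. The median rise of the shared genes was 1.09 with the inhibitors and 1.24 without, and the median log2 fold change of the shared falls was -0.96 and -1.20. With inhibitors the size was smaller for 1268 of the 1833 shared rises and for 1583 of the 2098 shared falls. Another 743 rises and 877 falls of CM alone were not called with both inhibitors. For 66 and 66 of these, respectively, the difference of the responses passed its own test.

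**Figure D3:**
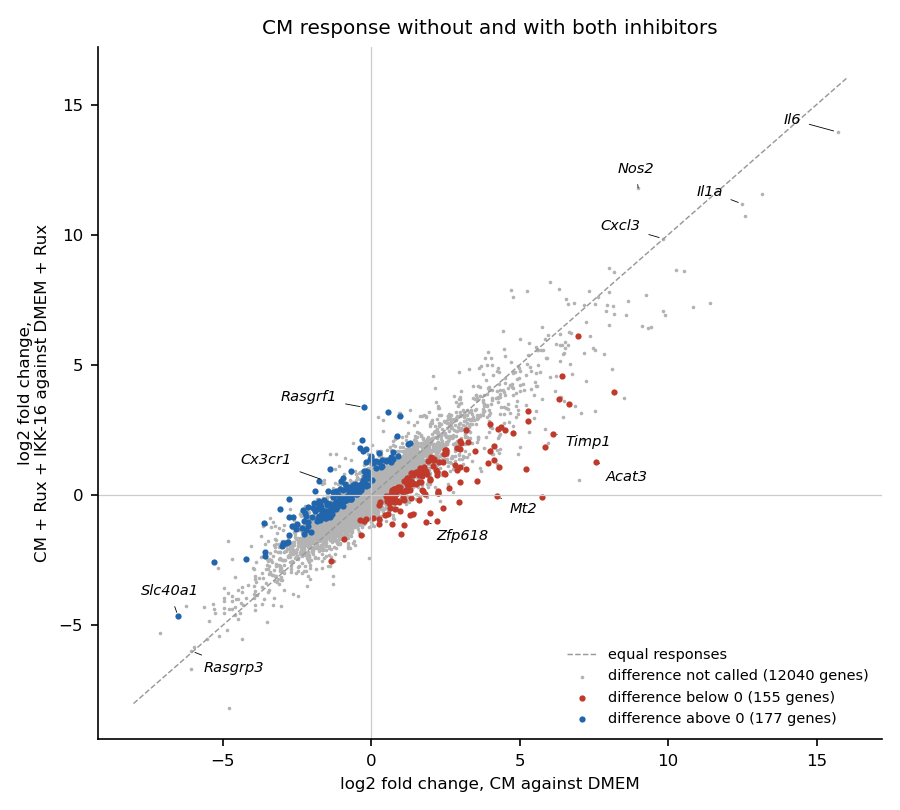
Log2 fold change of each of the 12372 genes in CM against DMEM (x axis) and in CM + Rux + IKK-16 against DMEM + Rux (y axis). Each point is a gene and the colors mark the genes whose responses differed by the test of the difference; the values are fitted, also for genes at 0 in a control, and the points follow the dashed line of equal responses, with a Pearson r of 0.92.

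The difference of the responses, tested as an interaction, was called for 332 genes, with the value higher with inhibitors for 177 (1.43% of the genes tested) and lower for 155 (1.25%). These comprised 142 rises and 124 falls of CM alone that were smaller, absent or turned with both inhibitors. For 39 genes the change was called with the inhibitors and not without (30 rises and 9 falls), for 12 the shared change was larger with them, and 15 were called in neither response. Genes at 0 counts in both control groups, such as Il6, Csf3 and Ccl17, could not be called, because their difference has no usable standard error. For them the lack of a call says nothing about the size of the responses. With the replicate number as a block the difference was called for 527 genes higher and 397 lower, of which 176 and 154 were called without the block too, so the count depends on the pairing. It also depended on single samples. Without DMEM replicate 2, 124 genes were called, without CM + Rux + IKK-16 replicate 1 or 3, 167 and 214, without CM replicate 1 or 2, 196 and 203, and without DMEM + Rux replicate 2 or 3, 221 and 198.

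NF-κB target genes were mostly higher in CM + Rux + IKK-16 than in DMEM + Rux. How much IKK activity remained in these samples was not tested. Of 58 tested genes, 53 rose, none fell, and the median log2 fold change was 2.71, against -0.01 over all genes tested. Without inhibitors 54 rose and 1 fell, with a median of 2.94. The list holds cytokines already described and the feedback inhibitors of the pathway. Nfkbia, coding for IκBα, rose from 109, 116 and 132 CPM to 424, 629 and 547 CPM, by 2.16 ± 0.17 (adjusted p = 1.87e-07), and by 2.61 ± 0.21 in CM alone. Tnfaip3, the ubiquitin-editing inhibitor A20, rose by 2.59 ± 0.19, and Nfkb1, a subunit of NF-κB, by 2.33 ± 0.12. The log2 fold changes without inhibitors were 3.02 and 2.36. Il1b, interleukin-1β, reached 3354, 5670 and 4797 CPM from 53.9, 51.8 and 109 CPM, a rise of 6.01 ± 0.42, against 5.86 ± 0.50 in CM alone.

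The response of 3 NF-κB targets was smaller with the inhibitors by the test of the difference. That test could not decide for Il6, also on the list, which was at 0 in both control groups. Il6 stood at 64.5 ± 41.0 CPM with CM + Rux + IKK-16 and at 219 ± 111 CPM with CM. Saa3, an acute-phase protein, stood at 43.6, 63.6 and 114 CPM with CM + Rux + IKK-16 and at 626, 684 and 1179 CPM with CM. Its log2 fold change was 3.48 against 6.65, a difference of -3.16 ± 0.69 (adjusted p = 0.0276), and without DMEM replicate 2 the adjusted p was 0.139. Malt1, the paracaspase of the CBM complex, rose by 2.51 against 3.20 (difference -0.70, adjusted p = 0.0254). Tnip3, a partner of A20, had log2 fold changes of -0.28 and 0.61 (difference -0.89, adjusted p = 0.0166). With the replicate block 10 targets were called lower and 2 higher in the difference, where 397 and 527 of all 12372 genes tested were. Ptgs2, the inducible cyclooxygenase of prostaglandin synthesis, joined them there with -1.36 (adjusted p = 0.0186, and 0.183 without the block). It nevertheless rose with both inhibitors from 6.51, 6.14 and 6.96 CPM to 949, 1591 and 863 CPM.

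Chemokine genes showed the same direction. With both inhibitors 8 of 9 tested CXC chemokines and 10 of 11 CC and CX3C chemokines rose and none fell, with median log2 fold changes of 3.09 and 3.43. Of 24 cytokine genes 16 rose and 1 fell, Ltb, which codes for lymphotoxin β. Among the genes of the IKK complex and its signaling partners 9 of 24 rose (37.5%, against 17.8% of all genes), 1 fell and 14 did not pass. On total counts 5 rose and 4 fell, so the balance of this list depends on the scaling. The largest of these rises was that of Il1r1, the interleukin-1 receptor, at 3.88 ± 0.38, and the fall was that of Otulin, a deubiquitinase, at -0.72 ± 0.12. The kinase genes Chuk and Ikbkb, which code for IKKα and IKKβ, moved by 0.47 and 0.43, below the fold threshold.

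The study named several genes from these cells, among them factors that act on other cells of the tumor. Csf1, the macrophage growth factor, stood at 49.0, 50.8 and 73.6 CPM with CM + Rux + IKK-16 and at 4.99, 5.76 and 9.62 CPM in DMEM + Rux. It rose by 3.08 ± 0.23 with the inhibitors and by 1.80 ± 0.26 without. The difference of 1.29 ± 0.34 had an adjusted p of 0.0605, and with the replicate block it was 1.46 with an adjusted p of 0.000783. Cx3cl1, the chemokine fractalkine, rose by 3.43 ± 0.33 against 2.25 ± 0.37 (block: difference 1.43, adjusted p = 0.0269, and 0.238 without the block). Its receptor gene Cx3cr1 stood at 154, 152 and 107 CPM against 112, 119 and 46.7 CPM, so that the groups overlapped and the log2 fold change of 0.57 ± 0.37 did not pass (adjusted p = 0.2). With the replicate block it was 0.66 and passed (adjusted p = 0.000937). In CM alone Cx3cr1 fell by 1.59 on the log2 scale. The difference of 2.16 ± 0.55 had an adjusted p of 0.0538, and of 0.000109 with the block. Ccl22, a chemokine for regulatory T cells, rose by 7.36 ± 0.43, and Tnf by 2.26 ± 0.36 from a control level of 53.9 ± 5.65 CPM. Csf2, coding for GM-CSF, was at the limit of counting with 9 fragments against 2, a ratio of 4.14 (95% counting interval 0.857 to 39.4). Rela, coding for the NF-κB subunit p65, had a log2 fold change of 0.39 ± 0.10, below the fold threshold.

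Targets of cytokine-activated STATs also moved with JAK inhibited. Of 23 tested genes 16 rose and 3 fell, with a median log2 fold change of 2.46 with both inhibitors and 3.58 without. Socs3, the feedback inhibitor of cytokine receptors, rose from 4.02, 4.60 and 5.96 CPM to 502, 1213 and 658 CPM, by 7.34 ± 0.50 (adjusted p = 3.88e-08), and by 7.54 ± 0.60 in CM alone. Cish, a target of STAT5, rose by 6.91 ± 0.39 against 9.90 ± 0.52. That difference of -2.99 passed with the replicate block (-3.01, adjusted p = 0.0472) and not without (adjusted p = 0.132). Il4ra, a chain of the IL-4 and IL-13 receptors, reached 226, 375 and 249 CPM with the inhibitors and 871, 1220 and 799.9 CPM with CM. Its rises of 2.62 and 4.39 differed by -1.77 ± 0.39 (adjusted p = 0.0270, and 0.0987 without DMEM replicate 1). Bcl6, a transcriptional repressor, fell further with the inhibitors, from 148, 158 and 133 CPM to 27.7, 20.8 and 27.1 CPM, a log2 fold change of -2.54 against -1.36 (difference -1.18 ± 0.22, adjusted p = 0.0134, and 0.0564 without DMEM replicate 2).

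For several genes of the JAK-STAT machinery itself the difference of the responses was below 0, through a smaller rise or through a fall. Of 29 tested receptors, kinases and STATs 13 rose (44.8%, against 17.8% of all genes) and 5 fell (17.2%, against 19.6%) with the inhibitors. On total counts 8 rose and 5 fell. The difference was called lower for 7, where it was for 1.25% of all genes, and higher for none. With the block it was lower for 10, where it was for 397 of all 12372 genes tested, and higher for none. Stat4 had the largest rise at 3.04 ± 0.33 and Lifr, the receptor of leukemia inhibitory factor, the largest fall at -2.43 ± 0.17. Stat5a stood at 45.9, 45.8 and 51.7 CPM with CM + Rux + IKK-16 and at 131, 111 and 118 CPM with CM, where the control samples of both lay between 30.0 and 34.5 CPM. Its log2 fold changes of 0.57 and 1.99 differed by -1.42 ± 0.16 (adjusted p = 0.000493), and this call held with each of the 11 samples left out in turn. Jak3, the kinase of the common γ chain receptors, had 0.21 against 1.24 (difference -1.02, adjusted p = 0.00789). The receptor genes Csf3r and Il6ra had differences of -0.93 and -1.18 (adjusted p = 0.00835 and 0.0141). Il6ra fell with the inhibitors, to 43.9 ± 1.22 CPM from 126 ± 15.9 CPM, and did not pass in CM alone. Jak2, one of the kinases that ruxolitinib targets, rose by 3.03 ± 0.12 to 362, 414 and 396 CPM, and by 3.59 ± 0.15 in CM alone. Jak1 had 0.34 ± 0.08, below the fold threshold.

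Interferon target genes were called at shares near those of all genes. Of 45 tested, 10 rose (22.2%, against 17.8% of all genes), 6 fell (13.3% against 19.6%) and 29 did not pass (64.4% against 62.6%), and the median log2 fold change of 0.08 became -0.16 on total counts alone. These counts rested on single samples, with 6 rises without CM + Rux + IKK-16 replicate 2, and 3 falls without CM + Rux + IKK-16 replicate 1 or without DMEM + Rux replicate 2. Several of these genes had control levels that were far lower in DMEM + Rux than in DMEM, so the responses start from different levels. Mx1, an antiviral GTPase, stood at 0.592 ± 0.126 CPM in DMEM + Rux and at 32.0 ± 11.3 CPM in DMEM, Rsad2 at 2.36 and 72.2 CPM, and Ifit1 at 1.11 and 51.9 CPM. Mx1 did not pass with the inhibitors (0.56 ± 0.46) and fell by 1.75 on the log2 scale without them, a difference of 2.31 ± 0.56 (adjusted p = 0.0415, and 0.157 without DMEM replicate 2). With the replicate block 8 of these 45 genes were called higher in the difference, where 527 of all 12372 genes tested were.

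Gbp5, a guanylate-binding protein, had the largest rise of the interferon list, from 0.785, 0.514 and 1.62 CPM to 29.7, 40.9 and 57.5 CPM, by 5.50 ± 0.43 (adjusted p = 1.55e-07). Isg15, a ubiquitin-like modifier, rose by 2.22 ± 0.60, and its 6.73, 14.0 and 6.55 CPM stayed below every DMEM sample (17.7 and 27.1 CPM). Ifit1 was called in opposite directions, 1.59 with the inhibitors (adjusted p = 0.0442, and 0.176 without CM + Rux + IKK-16 replicate 2) and -1.40 without. Ifit3 fell in both, by 2.15 and by 3.25 on the log2 scale, and so did its close copy Ifit3b, with -2.45 ± 0.75 (adjusted p = 0.0119, and 0.0723 without DMEM + Rux replicate 2) and -4.68 ± 0.48. Reads could be divided between these copies, so their levels are less certain.

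**Figure D4:**
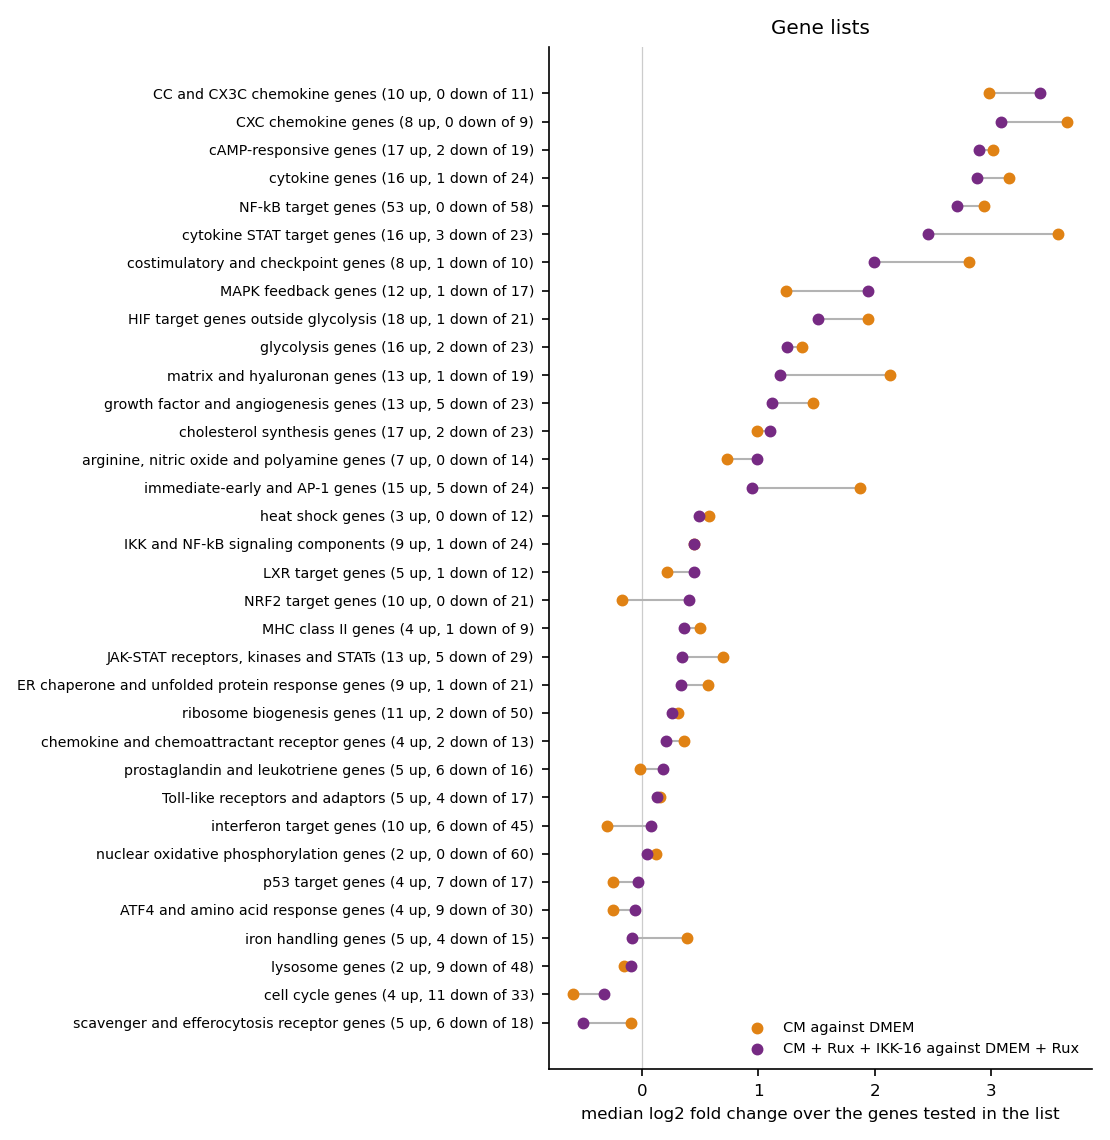
Median log2 fold change of each of the 34 gene lists in CM against DMEM and in CM + Rux + IKK-16 against DMEM + Rux. Each row is a list and each point a median over its tested genes, with genes not counted in a control at their bound; medians with the inhibitors above 0 by less than the scaling shift of 0.21 fall below 0 on total counts alone. The NF-κB target genes stand at 2.71 with the inhibitors and the nuclear oxidative phosphorylation genes at 0.04.

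Metabolic genes were mostly called in the same direction in both responses, 18 of 23 glycolysis genes and 18 of 21 other targets of the hypoxia factor HIF. Of the 23 glycolysis genes 16 rose and 2 fell with both inhibitors, and of the 21 HIF targets 18 rose and 1 fell, with medians of 1.25 and 1.51 against 1.38 and 1.95 without inhibitors. Slc16a3, the lactate exporter MCT4, rose from 36.2, 31.5 and 30.4 CPM to 356, 544 and 394 CPM, by 3.72 ± 0.21 (adjusted p = 8.93e-09). Hk2, a hexokinase, rose by 3.25 ± 0.20 and Slc2a1, the glucose transporter GLUT1, by 3.07 ± 0.23. A second glucose transporter gene, Slc2a3, fell with a log2 fold change of -1.38 ± 0.18. Vegfa, the angiogenic growth factor, rose from 10.3, 6.43 and 19.7 CPM to 510.2, 915 and 537 CPM, by 5.76 ± 0.47 (adjusted p = 2.35e-07), and Plin2, a lipid droplet coat protein, fell with -1.69 ± 0.19.

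Pfkfb3, the enzyme that makes the main activator of glycolytic flux, was an exception in size. It reached 204, 248 and 172 CPM with the inhibitors and 902, 1009 and 628 CPM with CM, from control levels of 36.7 ± 5.07 and 37.0 ± 4.92 CPM. The rises of 2.50 and 4.52 differed by -2.02 ± 0.33 (adjusted p = 0.00594), and the call held with each sample left out.

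Of 23 cholesterol synthesis genes 17 rose and 2 fell, with a median of 1.10 with the inhibitors and 0.99 without. Hmgcs1, which makes an early step of the pathway, rose by 1.12 ± 0.29 (adjusted p = 0.00495) from 49.3, 63.5 and 44.0 CPM to 108, 146 and 87.9 CPM. Dhcr7, which makes a late step, went the other way, from 21.0, 21.5 and 19.0 CPM to 13.3, 12.8 and 9.29 CPM, a log2 fold change of -0.80 against -2.21 in CM alone (difference 1.41 ± 0.26, adjusted p = 0.0133, and 0.0502 without DMEM replicate 2). Among 12 targets of the sterol sensor LXR 5 rose (41.7%, against 17.8% of all genes) and 1 fell (8.33%, against 19.6%), and on total counts 4 and 1. Scd2, a fatty acid desaturase, had the largest rise at 2.78 ± 0.50. Abca1, a cholesterol exporter, rose by 2.26 ± 0.10 and Abcg1, another, had a log2 fold change of -0.97 ± 0.15.

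Targets of NRF2, the factor that answers oxidative stress, rose for 10 of 21 genes with the inhibitors (47.6%, against 17.8% of all genes) and fell for none, but on total counts 9 rose and 2 fell. CM alone gave 5 rises and 4 falls. The medians were 0.40 and -0.17. The difference was called for Hmox1, heme oxygenase, without the block, and for 11 genes with it, all higher with the inhibitors. With the block it was called higher for 527 of all 12372 genes tested. Hmox1 stood at 564, 473 and 559 CPM in CM + Rux + IKK-16, above the 395, 397 and 417 CPM of DMEM + Rux, and at 317, 291 and 356 CPM in CM, below the 429.5 and 423 CPM of DMEM. Its difference was 0.81 ± 0.15 (adjusted p = 0.0111). Gclm, a subunit of the enzyme of glutathione synthesis, rose by 1.02 ± 0.31 and had -0.14 ± 0.34 in CM alone (block: difference 1.08, adjusted p = 0.000904, and 0.211 without the block). Slc7a11, the cystine importer, rose in both, by 4.99 ± 0.38 and 4.06 ± 0.43.

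Early response genes rose at a larger share than all genes and fell at a share near that of all genes. Of 24 immediate-early and AP-1 genes 15 rose (62.5%, against 17.8% of all genes) and 5 fell (20.8%, against 19.6%). Their median was 0.95, against 1.87 in CM alone. Fos rose from 75.3, 56.6 and 79.2 CPM to 301, 501 and 308 CPM, by 2.40 ± 0.36, and Nr4a3, an orphan nuclear receptor, by 5.17 ± 0.37. Egr3 fell, with -3.09 ± 0.40. Feedback genes of MAPK signaling rose for 12 of 17 and fell for 1. Dusp5, an ERK phosphatase, rose by 4.62 ± 0.52, and Dusp6, another, had -0.81 ± 0.31 (adjusted p = 0.0355, and 0.126 without CM + Rux + IKK-16 replicate 1). Of 19 cAMP-responsive genes 17 rose and 2 fell, with a median of 2.90 (3.02 in CM alone). Rgs2, a brake on G protein signaling, was among the falls at -2.68 ± 0.35.

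The median response of matrix genes was smaller with the inhibitors. Of 19 matrix and hyaluronan genes 13 rose and 1 fell with the inhibitors, with a median of 1.19 against 2.13 in CM alone, and 3 had a difference called lower. Mmp13, a collagenase, stood at 58.7, 50.3 and 61.1 CPM with the inhibitors and at 407, 277 and 491 CPM in CM, from 7.96 ± 0.407 and 10.1 ± 0.610 CPM. Its rises of 2.83 and 5.28 differed by -2.44 ± 0.30 (adjusted p = 0.00101). Timp1, an inhibitor of such enzymes, rose from 0.877, 2.34 and 1.39 CPM to 4.56, 14.0 and 6.96 CPM, whereas CM alone brought it to 65.1, 128 and 68.9 CPM. The rises were 2.36 and 6.12, a difference of -3.76 ± 0.80 (adjusted p = 0.0242, up to 0.0981 with a sample left out, and 2.14e-05 with the replicate block). Mmp10, another metalloproteinase, rose in CM alone and stood at 0.103 ± 0.0390 CPM with the inhibitors, a difference of -3.20 ± 0.61. Timp2, also an inhibitor, fell with -0.81 ± 0.16.

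Among 23 growth factor and angiogenesis genes 13 rose (56.5%, against 17.8% of all genes) and 5 fell (21.7%, near the 19.6% of all genes). Nrg1, a ligand of ERBB receptors, rose by 7.05 ± 0.56 to 8.38, 16.6 and 14.1 CPM, and stood at 114 ± 14.5 CPM in CM alone. Its difference of -2.79 did not pass (adjusted p = 0.395), with 9 and 7 counted fragments in the controls. Pdgfa, a growth factor for fibroblasts, had rises of 1.82 and 2.89 (difference -1.07 ± 0.17, adjusted p = 0.00549).

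Mt2, coding for the metal-binding protein metallothionein 2, rose in CM alone and was not detectably changed with both inhibitors. It stood at 7.01, 8.35 and 9.76 CPM with CM + Rux + IKK-16 and at 7.16, 9.09 and 9.45 CPM in DMEM + Rux. The samples of the groups overlapped, and the log2 difference was -0.04 ± 0.29 (adjusted p = 0.906). In CM alone it reached 125, 188 and 82.7 CPM, above 5.67 and 8.47 CPM in DMEM, a rise of 4.23 ± 0.36. The difference of -4.28 ± 0.44 (adjusted p = 0.000353) held with each of the 11 samples left out, the highest adjusted p being 0.00378.

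Acat3, an acetyl-CoA acetyltransferase gene on chromosome 17 that has a close relative in Acat2, showed the largest negative difference among genes of at least 1 CPM on average, -6.29 ± 1.0 (adjusted p = 0.00530). It stood at 13.1, 10.8 and 7.45 CPM in CM and at 0.438, 0.703 and 0.350 CPM with both inhibitors, with 19 and 3 counted fragments in the control groups. Reads could be divided between such relatives, so its level is less certain. Il1rn, the antagonist of the interleukin-1 receptor, stayed abundant at 1566, 1997 and 1509 CPM from 71.1 ± 11.5 CPM, while CM alone gave 4467, 6563 and 4213 CPM (difference -1.86 ± 0.33, adjusted p = 0.00990). Ptpn1, a phosphatase that acts on JAK kinases, rose by 0.60 against 1.97 (difference -1.37 ± 0.17, adjusted p = 0.00125). Fcrlb, Ambp and Alpk2 had differences of -4.00 to -4.24 that rested on control groups of 1 to 15 fragments and were lost when most single samples were left out.

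Falls that were smaller with the inhibitors included receptors. Cxcr4, the receptor of the chemokine CXCL12, stood at 393, 237 and 282 CPM with CM + Rux + IKK-16 and at 452, 359 and 426 CPM in DMEM + Rux, a log2 fold change of -0.44 below the fold threshold. CM alone lowered it to 98.3, 65.9 and 90.5 CPM from 373 ± 31.8 CPM. The difference was 1.70 ± 0.27 (adjusted p = 0.00480). Tlr9, the sensor of unmethylated DNA, fell by 0.82 on the log2 scale with the inhibitors and by 2.77 without (difference 1.94 ± 0.32, adjusted p = 0.00686). These calls held with each sample left out. Slc40a1 was also less reduced, 9.79 ± 4.63 CPM against 2.36 ± 0.347 CPM in CM, but this difference of 1.85 ± 0.46 (adjusted p = 0.0480) was kept in 1 of 11 fits with a sample left out and had an adjusted p of 0.00748 with the block. Angpt2, a vascular growth factor, had log2 fold changes of -0.53 and -3.07 (difference 2.54, adjusted p = 0.0225). This call was kept in 6 of 11 fits with a sample left out, and without DMEM replicate 2 the adjusted p was 0.103.

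A rise found with the inhibitors and not without them had its largest difference, among genes of at least 1 CPM on average, in Rasgrf1, an exchange factor for Ras. It stood at 3.99, 2.75 and 2.42 CPM against 0.462, 0.268 and 0.194 CPM, a rise of 3.37 ± 0.55 (adjusted p = 0.000134), and did not pass in CM alone (-0.23 ± 0.54). The DMEM samples were uneven at 2.33 and 0.655 CPM, and the difference of 3.6 ± 0.77 (adjusted p = 0.0243) had an adjusted p of 0.194 without DMEM replicate 1. Ern1, the stress sensor IRE1α, rose by 2.0 ± 0.12 with the inhibitors and 1.32 ± 0.13 without. Its difference of 0.68 (adjusted p = 0.0491) was kept in 1 of 11 fits with a sample left out. Ticam2, an adaptor of TLR4, rose by 1.11 ± 0.09 and had 0.37 ± 0.10 in CM alone, below the fold threshold (difference 0.74 ± 0.13, adjusted p = 0.00952).

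Called in opposite directions were 13 genes, 5 higher and 8 lower with the inhibitors. With a sample left out, the call with the inhibitors was kept in 1 of 6 fits for Gm7367. It was kept in 2 for Plxna1, Soat2 and Ifit1, in 3 for Ubald2 and Ppfibp2 and in 4 for Hs3st3b1. For the other genes it was kept in all 6. The difference of the responses did not pass for Ifit1, Soat2 and Hs3st3b1. Irf8, a transcription factor of the monocyte lineage, fell from 204, 197 and 204 CPM to 112, 117 and 136 CPM with both inhibitors, and rose in CM alone from 187 and 195 CPM to 267, 297 and 282 CPM. The log2 fold changes of -0.73 ± 0.10 and 0.56 ± 0.11 differed by -1.29 ± 0.14 (adjusted p = 0.000541). It was picked from the 13 after their values were seen. Zfp618, a zinc finger protein gene, had -1.02 ± 0.21 and 1.85 ± 0.23 (difference -2.87, adjusted p = 0.000493). March1, a ubiquitin ligase that removes MHC class II from the surface, stood at 17.6, 9.88 and 26.7 CPM with the inhibitors and 36.2, 44.7 and 38.3 CPM in DMEM + Rux, and rose to 84.4 ± 10.7 CPM in CM (difference -2.24 ± 0.38, adjusted p = 0.00801). Hs3st3b1, a heparan sulfate sulfotransferase gene, had -0.87 ± 0.28 (adjusted p = 0.0160, and 0.0881 without DMEM + Rux replicate 1) and 0.73 ± 0.30, and its difference of -1.60 did not pass (adjusted p = 0.0518, and 0.0172 with the block). Dusp13, a phosphatase gene, went the other way with 1.0 ± 0.26 and -1.37 ± 0.33. The differences of Irf8, Zfp618, March1 and Dusp13 passed with each sample left out.

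Lists of sensing, uptake and presentation genes held rises and falls, as did the genes as a whole, of which 17.8% rose and 19.6% fell. Of 17 Toll-like receptors and adaptors 5 rose (29.4%) and 4 fell (23.5%), and on total counts 4 and 5. Tlr5, the receptor for flagellin, had the largest rise at 3.17 ± 0.61, and Tlr7, which senses RNA, the largest fall at -1.51 ± 0.18. Costimulatory and checkpoint genes rose for 8 of 10 and fell for 1. Havcr2, coding for the checkpoint receptor TIM-3, rose from 8.08, 9.13 and 13.2 CPM to 101, 254 and 141 CPM, by 4.02 ± 0.46, and Vsir, coding for VISTA, fell to 243, 248 and 240.4 CPM from 471, 438 and 509 CPM. Of 9 MHC class II genes 4 rose (2 on total counts) and 1 fell. H2-Ob, a chain of H2-O, rose by 3.42 ± 0.43, and the fall was that of Ciita, their main activator, with -1.07 ± 0.29. Scavenger and efferocytosis receptors rose for 5 of 18 (27.8%) and fell for 6 (33.3%, and 9 genes with the block or on total counts). Timd4, a receptor for phosphatidylserine, rose by 3.20 ± 0.23, and Mertk, which serves the uptake of dead cells, had -1.75 ± 0.24. Among 13 receptors of chemokines and chemoattractants 4 rose and 2 fell, but 3 rose and 4 fell on total counts and 6 rose and 2 fell with the block, with Ccr1 at 4.20 ± 0.49 and Cxcr3 at -1.85 ± 0.35. Arginine, nitric oxide and polyamine genes rose for 7 of 14 and none fell. Prostaglandin and leukotriene genes rose for 5 of 16 (31.2%) and fell for 6 (37.5%), among them Alox5, the lipoxygenase of leukotriene synthesis, with -2.19 ± 0.32. Iron handling genes rose for 5 of 15 (33.3%) and fell for 4 (26.7%), and their median was 0.31 as fitted and -0.09 with genes at their bound. Lcn2, which binds bacterial iron carriers, rose by 2.53 ± 0.57 to 0.915 ± 0.310 CPM and stood at 13.8 ± 2.69 CPM in CM alone.

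Over all genes 62.6% were not called. Of 60 nuclear genes of oxidative phosphorylation 96.7% were not called, 2 rose, among them Atp5d, a subunit of ATP synthase, by 0.65 ± 0.15, and none fell, with a median of 0.04 that was -0.18 on total counts, where none rose and 7 fell. Of 50 ribosome biogenesis genes 11 rose (22%, near the share of all genes) and 2 fell (3 and 2 on total counts), with Rrp1b at 1.36 ± 0.25 and Rrp15 at -0.54 ± 0.13. Lysosome genes rose for 2 of 48 and fell for 9 (18.8%, near the share of all genes, and 15 genes on total counts), with Sgsh, a heparan sulfate sulfatase, at -1.60 ± 0.21 and Ctsl, the protease cathepsin L, at 1.26 ± 0.20. Of 21 endoplasmic reticulum chaperone and unfolded protein genes 9 rose (5 on total counts) and 1 fell, the sensor gene Atf6 with -0.92 ± 0.08. Of 12 heat shock genes 3 rose, Hsph1 the most by 1.36 ± 0.17, and none fell (2 and 1 on total counts, and 5 and none with the block). Of 30 ATF4 and amino acid response genes 4 rose (13.3%) and 9 fell (30%), and on total counts 4 and 10. The falls were led by Pck2, a mitochondrial enzyme of gluconeogenesis, at -1.99 ± 0.13. Cell cycle genes rose for 4 of 33 (12.1%, against 17.8% of all genes) and fell for 11 (33.3%, against 19.6%), with a median of -0.33. On total counts 3 rose and 15 fell, with a median of -0.55. Kif11, a motor of the mitotic spindle, had -1.88 ± 0.34. Mki67, the proliferation marker Ki-67, rose by 3.02 ± 0.19, from 13.6, 17.8 and 12.8 CPM to 90.6, 120.4 and 149 CPM. Among 17 targets of p53 4 rose (23.5%) and 7 fell (41.2%), and on total counts 3 and 7. Sesn1 fell the most, and Gdf15, a stress cytokine, rose by 1.68 ± 0.50.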

How the data were processed

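RNA of 16 BMDM samples in 6 groups was sequenced from stranded TruSeq libraries, and 11 samples of 4 groups are compared here. The authors trimmed reads with Trimmomatic 0.33, aligned them to GRCm38 with HISAT2 2.1.0 and made counts of fragments per gene with featureCounts 1.6.2, at a mapping quality of at least 10 and by strand. The deposited table holds these raw counts for 55487 Ensembl identifiers, of which 55141 have a symbol in the Ensembl annotation (the others hold at most 0.0459% of a sample's counts). Samples were grouped by their labels.

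Counts were scaled by relative log expression. Genes had to exceed 1 CPM in 2 or more samples. 1 model of all 16 samples was fitted with the quasi-likelihood test of edgeR 4.0.16 (limma 3.58.1, R 4.3.3). The study also used edgeR, in another version, and does not name which of its tests. Its section on statistics names a t test for differentially expressed genes. Changes were called at a Benjamini-Hochberg adjusted p-value under 0.05 over all genes and a log2 fold change beyond 0.5, as in the study. The code was tested on simulated data. Genes with at most 3 counts in each control sample were set against 3 counts, intervals of ratios are exact at 95%, and DESeq2 1.42.0 was an alternative.

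Samples with the same number deviated together, with correlations of 0.302, 0.186 and 0.270 between CM + Rux + IKK-16 and DMEM + Rux, so the numbers pair the samples. The main fit left this pairing out, and the fit with the replicate block took it in. Pairs of replicates in these groups had chi-squares, divided by their degrees of freedom, of 14.2 to 50.9, so none was a copy of another. Named were the 12 largest rises and falls with non-overlapping groups and at least 1 CPM, the largest of each list, the 6 largest differences per direction, 4 opposite genes per direction, and genes the study names or inhibits. 1 gene under this rule is not reported here. Others, from the lists, were chosen after their values were seen. The 34 gene lists, 8 marker lists and this comparison were chosen with earlier results of these data known.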

Additional observations from a re-analysis of the deposited data

Results flagged for a closer look

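The test of the difference between the CM responses with and without both inhibitors passed for 177 genes with a higher and 155 with a lower value with the inhibitors. Named genes with a higher value, by the difference of log2 fold changes, were Rasgrf1 (3.6), ENSMUSG00000061654 (2.73), Fam83f (2.62), Angpt2 (2.54), Gm30329 (2.53), Nptx1 (2.45), Dusp13 (2.37), Slc40a1 (1.85), Plxna1 (1.61), Prrg4 (1.6), Dhcr7 (1.41) and Ern1 (0.68). Those with a lower value were Acat3 (-6.29), Mt2 (-4.28), Alpk2 (-4.24), Ambp (-4.18), Fcrlb (-4.00), Timp1 (-3.76), Zfp618 (-2.87), March1 (-2.24), Ubald2 (-1.58), Bcl6 (-1.18) and Vsir (-0.57). With a sample left out, the calls of Ern1 and Slc40a1 were kept in 1 of 11 fits, of Prrg4 in 2, of Plxna1 and Nptx1 in 3 and of Vsir in 4. Those of Dusp13, Acat3, Zfp618 and March1 were among the calls kept in all 11. The groups hold 2 or 3 samples, too few for a test of single outlying samples.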

How the results depend on the processing

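With the replicate block, the pairing raised the genes with a called difference to 527 higher and 397 lower, and to 387 and 325 with only the groups compared. The difference was called for 381 and 312 genes without a filter, 309 and 245 by the likelihood ratio test, 305 and 246 by DESeq2, and 701 and 490 at an unadjusted p under 0.05, and for 289 higher at an adjusted p under 0.1. On total counts alone 279 were higher in the difference, CM alone had 1536 higher and 4606 lower, and 1208 and 3281 were shared. With no fold threshold 3722 rose with both inhibitors, 3883 in CM alone and 3133 in both. The causes were not tested. With each sample left out, the difference was called for 64 to 214 genes higher and 60 to 196 lower, and the interferon list for 6 to 10 higher and 3 to 7 lower with both inhibitors. Against DMEM in place of DMEM + Rux, 1996 genes were higher and 2126 lower, and 1837 and 1892 of these were called against DMEM + Rux too.

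Of 85 named genes of the comparison with both inhibitors, 79 kept their call in every alternative fit, and 6 of 20 named differences did. Other thresholds and DMEM as the control were not run for single genes. Most of these genes were picked for large called changes. No direction was reversed. Among the 220 values of these differences with a sample left out, 70 lost the call and 4 gained it. Below 3 counts per library, changes were not detectable at this depth.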
